A study of Homo sapiens with 8 samples.

Results

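The mRNA levels of 29 genes of cholesterol synthesis, uptake and efflux were followed in SV-HUC1 urothelial cells after glucose oxidase. The genes were taken by name from the deposited count table, which lists 58735 genes, and all 29 were found once and passed the filter on low counts that left 17413 genes. They comprise 18 synthesis enzymes, 5 SREBP proteins and regulators (SREBF1, SREBF2, SCAP, INSIG1 and INSIG2), 3 genes of intracellular cholesterol transport (NPC1, NPC2 and STARD4) and 3 targets of the liver X receptors, LXR (ABCA1, ABCG1 and MYLIP). The list was chosen by pathway, with earlier results of these data known.

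SV-HUC1 is a single established line of normal human urothelium immortalised with SV40, and all libraries come from it. Control cultures (4 libraries, replicates 1 to 4) were untreated. Treated cultures (4 libraries, replicates 1 to 4) received glucose oxidase at 20 mU per ml in the medium for 24 h. This enzyme oxidises glucose and releases hydrogen peroxide, and no group received peroxide alone or inactive enzyme, so their effects cannot be told apart. Both groups grew in the same basal medium with fetal bovine serum, which also supplies lipoprotein cholesterol.

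Cells make cholesterol from acetyl-CoA through mevalonate, isoprenoid units, squalene and a series of sterol intermediates. The transcription factor SREBP-2, encoded by SREBF2, switches on these enzymes when membrane cholesterol in the endoplasmic reticulum is low. The INSIG proteins then no longer hold SREBP-2 and its escort SCAP in the endoplasmic reticulum, and SREBP-2 is activated by cleavage. When sterols are plentiful, oxysterols instead activate LXR, which induces the exporters ABCA1 and ABCG1 and the ubiquitin ligase MYLIP, which removes lipoprotein receptors. In the urothelium, cholesterol-rich apical plaques form part of the barrier against urine.

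The 4 control libraries held 21653952 to 23543702 counts and the 4 treated libraries 21437267 to 27183692. Of 20 urothelial markers, 16 had a mean above 1 FPKM (fragment counts scaled by gene length and library size), while TP63, UPK1A, UPK3A and UPK3B were below it. UPK1A and UPK3A, among the last, belong to terminally differentiated surface cells. The summed FPKM of these 20 markers was 1824 to 2585 in controls and 1346 to 1517 in treated cultures, without overlap, and its part in the results was not tested. Keratins made up much of this sum, with mean FPKM of 664 in controls and 361 in treated cultures for KRT19 and of 266 and 110 for KRT13. Of the 18 markers tested, 4 were lower in the blocked fit described below, the keratins KRT13, KRT19, KRT5 and KRT8. The transcription factors FOXA1 (log2 change 0.92) and GATA3 (0.52) were the 2 that were higher, and 12 did not pass. Among all genes 6.97% were lower and 7.51% higher, and the markers' median log2 change was -0.03. Summed FPKM was 1.65 to 2.58 in controls and 1.48 to 2.57 in treated cultures for 5 fibroblast markers, and 0.419 to 0.786 and 0.306 to 0.914 for 3 endothelial markers. For 5 leukocyte markers it was 0.690 to 0.998 and 0.497 to 0.560, nearly all of it from CSF1R, with the defining marker PTPRC at mean FPKM of 0.00740 and 0.0116. Replicates 3 and 4 stood apart from replicates 1 and 2 in both groups, a division seen in the expression values and not given in the labels, and values within these sets are given below for the genes the results turn on.

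Levels are given in CPM, read counts scaled to library size, normalised by the trimmed mean of M values (TMM). Changes are log2 ratios of treated over control from edgeR's quasi-likelihood fit that blocks on replicate number, with a standard error (SE). "Rose" and "fell" are used for genes with a Benjamini-Hochberg adjusted p below 0.05 over all 17413 genes in that fit. In the fit without the block, 0 of the 29 genes passed in either direction, as did 0 of all genes tested (0%). The adjusted p of the 29 genes there ran from 0.658 to 0.994. The unblocked edgeR fit left 1 of the 29 genes, ABCG1, below an unadjusted p of 0.05, against 7.37% of all genes. As RNA was taken from whole cultures, fewer cells of a type and less RNA per cell cannot be told apart.

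Promoters of 6 of the genes are shown as examples. Of these, 5 belong to genes that fell, among 12 such genes with an entry. The last, of SREBF2, belongs to a gene that did not pass and carries both motifs marked here. The examples are not a fair sample of motif content, which is given below over all matched genes. The sequences are from RefSeq (GRCh38.p14), 300 bases each from 250 before to 50 after the annotated start, read 5′ to 3′ on the gene's strand, and entries were matched for 25 of the 29 genes. Capitals mark CCAAT, the box bound by NF-Y, a factor that works together with SREBP, and CACNCCAC, the core of the sterol regulatory element bound by SREBP. Both motifs were searched on both strands, and overlapping matches run together.
HMGCS1, chr5:43313363-43313662, minus strand: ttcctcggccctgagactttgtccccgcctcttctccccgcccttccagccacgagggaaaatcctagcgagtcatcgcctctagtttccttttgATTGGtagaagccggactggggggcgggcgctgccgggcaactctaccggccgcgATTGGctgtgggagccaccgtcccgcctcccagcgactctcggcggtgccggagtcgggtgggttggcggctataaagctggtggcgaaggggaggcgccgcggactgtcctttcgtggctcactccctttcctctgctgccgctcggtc
MVK, chr12:109573544-109573843, plus strand: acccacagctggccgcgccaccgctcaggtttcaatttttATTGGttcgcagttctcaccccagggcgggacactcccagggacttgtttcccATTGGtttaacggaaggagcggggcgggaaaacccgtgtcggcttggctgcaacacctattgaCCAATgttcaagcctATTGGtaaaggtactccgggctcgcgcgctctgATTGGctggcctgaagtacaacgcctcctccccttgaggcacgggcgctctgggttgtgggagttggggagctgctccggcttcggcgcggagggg
IDI1, chr10:1048837-1049136, minus strand: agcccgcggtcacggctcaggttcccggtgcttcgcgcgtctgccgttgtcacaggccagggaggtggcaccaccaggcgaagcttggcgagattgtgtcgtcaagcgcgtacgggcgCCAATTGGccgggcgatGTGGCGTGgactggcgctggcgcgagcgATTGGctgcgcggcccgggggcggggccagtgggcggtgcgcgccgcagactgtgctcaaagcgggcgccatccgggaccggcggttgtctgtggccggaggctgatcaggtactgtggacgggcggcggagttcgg
NSDHL, chrX:152830813-152831112, plus strand: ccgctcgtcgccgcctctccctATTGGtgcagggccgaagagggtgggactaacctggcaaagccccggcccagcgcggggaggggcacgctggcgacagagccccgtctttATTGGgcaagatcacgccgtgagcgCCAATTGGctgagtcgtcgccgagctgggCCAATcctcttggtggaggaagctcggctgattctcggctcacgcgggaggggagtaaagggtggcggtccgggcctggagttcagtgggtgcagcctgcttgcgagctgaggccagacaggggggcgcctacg
INSIG1, chr7:155297628-155297927, plus strand: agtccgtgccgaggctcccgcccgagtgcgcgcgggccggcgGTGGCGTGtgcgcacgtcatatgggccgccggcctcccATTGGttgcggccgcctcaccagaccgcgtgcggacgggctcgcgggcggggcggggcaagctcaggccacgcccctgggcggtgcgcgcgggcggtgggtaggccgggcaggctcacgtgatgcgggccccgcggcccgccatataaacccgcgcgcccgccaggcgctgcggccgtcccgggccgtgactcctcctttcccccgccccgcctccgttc
SREBF2, chr22:41832855-41833154, plus strand: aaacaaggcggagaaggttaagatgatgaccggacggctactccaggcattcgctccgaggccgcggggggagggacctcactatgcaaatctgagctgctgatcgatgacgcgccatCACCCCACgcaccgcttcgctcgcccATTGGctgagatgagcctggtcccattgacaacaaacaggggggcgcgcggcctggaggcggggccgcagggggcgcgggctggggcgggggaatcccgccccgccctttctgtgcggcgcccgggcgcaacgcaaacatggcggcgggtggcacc

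RefSeq gives a second HMGCS1 window, with neither motif, and 2 more IDI1 windows, 1 with 2 CCAAT boxes and no sterol element core and 1 with neither; of each gene's windows the one with most matches is printed. The printed HMGCS1 window held 2 CCAAT boxes, beginning 155 and 100 bases before the start, and the MVK and NSDHL windows 5 each. The printed IDI1 window held 3 boxes and a sterol regulatory element core 115 bases before the start. That of INSIG1 held a core at 208 and a box at 170 bases before it, and that of SREBF2 a core at 132 and a box at 106. Over the matched genes, counting any of a gene's windows, 18 of 25 had a CCAAT box (72%), among them 13 of 15 enzymes, against 39.7% of the 27305 genes in the table. The sterol element core was found for 5 of 25 (20%), namely IDI1, SC5D, SREBF2, INSIG1 and ABCA1, against 7.05% of genes in the table. An exact LXR direct repeat (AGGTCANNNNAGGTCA, both strands) was found in 0 of the 25, and in 0.0256% of genes in the table. With only 7 genes of the table matched, 0 was the likely count for any 25 genes. The search allowed no mismatch and ABCG1 had no entry, so it cannot show whether the LXR targets carry such sites. The E-box CACGTG was searched as well but is not marked in the sequences. It was found for 5 of 25 (20%), namely LSS, SC5D, SCAP, INSIG1 and ABCA1, against 8.77% of genes in the table.

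Most enzyme mRNAs fell after glucose oxidase, 6 of 7 in the mevalonate and isoprenoid steps and 7 of 11 from squalene to cholesterol. Of all 18 enzymes 13 fell, 0 rose and 5 did not pass, and all 18 fitted changes were negative, although that of CYP51A1 was 0.11 when libraries were scaled by total counts. Over all 29 genes 15 fell, against 6.97% of all genes tested that fell, and 2 rose, against 7.51%. The median log2 change of the enzymes was -0.53, beside -0.01 for all genes tested. The largest fitted declines among the 18 enzymes were those of MVK (0.96), IDI1 (0.81) and HMGCS1 (0.76) on the log2 scale. Differences between enzymes were not tested. PMVK and FDPS, also in the mevalonate and isoprenoid steps, had smaller changes (-0.38 and -0.44). In replicates 1 and 2 HMGCS1 changed by -0.27, less than the later enzyme EBP (-0.75). The plot of changes by replicate number shows all 4 treated libraries below the control of the same number for each of the 13 enzymes that fell.

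**Figure D1:**
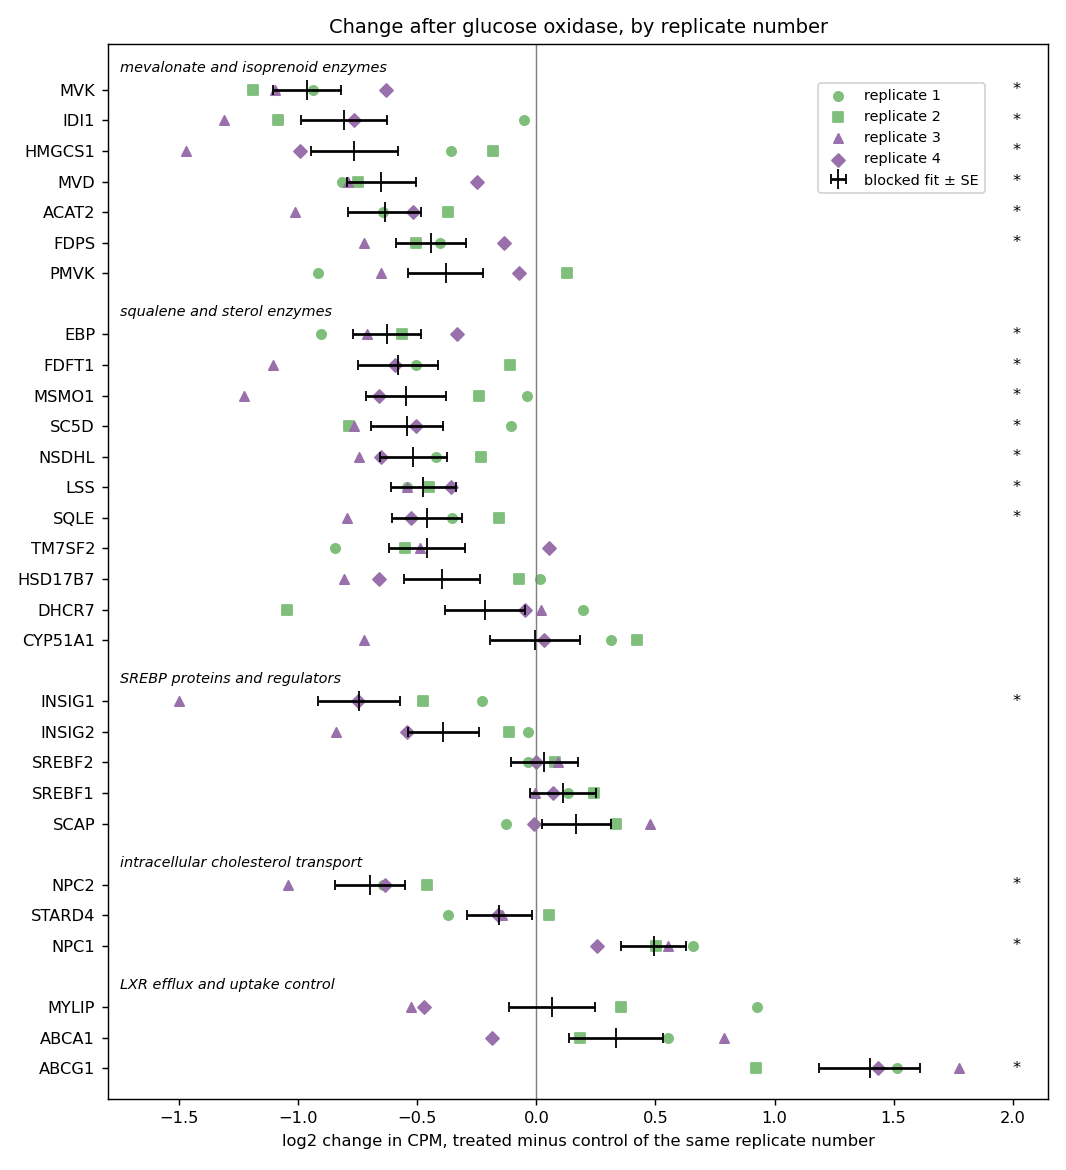
Log2 change in CPM of treated over control for each of the 29 genes (rows), in replicates 1 and 2 (green) and 3 and 4 (purple); black bars are the blocked edgeR estimate ± SE and asterisks mark an adjusted p below 0.05. The enzymes lie mostly left of 0, SREBF1, SREBF2 and SCAP lie around it, and ABCG1 lies right of it in every replicate.

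The 7 enzymes of the mevalonate and isoprenoid steps had a median log2 change of -0.65, and 6 of them fell. MVK, mevalonate kinase (ENSG00000110921, chromosome 12, 109573255 to 109598117, GRCh38), was at 52.0, 44.7, 121.9 and 103.7 CPM in controls 1 to 4 and at 27.1, 19.5, 56.9 and 66.9 CPM in treated 1 to 4. Each treated culture was below the control of its number, but treated 3 and 4 were above controls 1 and 2, so the groups overlapped. MVK fell by 0.96 (SE 0.14, edgeR adjusted p = 8.76e-05), a mean of 80.6 ± 38.1 CPM against 42.6 ± 22.8 (SD, n = 4). Of its exonic bases 4.72% are shared with MMAB on the opposite strand, a neighbour in vitamin B12 metabolism that fell by 0.53 on the log2 scale.

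HMGCS1 (chromosome 5, 43289395 to 43313512) makes HMG-CoA, the substrate of the mevalonate-forming step. Its level was 32.9 and 29.1 CPM in controls 1 and 2 and 859 and 674 CPM in controls 3 and 4. In treated cultures it was 25.7 and 25.6 CPM in replicates 1 and 2 and 310 and 338 CPM in 3 and 4. The spread between the sets was thus far wider than the change within either. HMGCS1 fell by 0.76 (SE 0.18, edgeR adjusted p = 0.00609).

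IDI1, isopentenyl-diphosphate isomerase (chromosome 10, 1039152 to 1049170), was at 111.7, 126.7, 1096 and 817 CPM in controls 1 to 4 and at 107.8, 59.7, 442 and 480 CPM in treated 1 to 4. The change of replicate 1 was close to 0 (log2 -0.05) and that of the others -0.77 to -1.31. IDI1 fell by 0.81 (SE 0.18, edgeR adjusted p = 0.00377). MVD, which makes isopentenyl diphosphate, fell by 0.65 (SE 0.14, edgeR adjusted p = 0.0034), from 67.0, 51.9, 132.8 and 128.6 CPM in controls 1 to 4 to 38.1, 30.9, 76.7 and 108.3 CPM in treated 1 to 4.

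ACAT2, the cytosolic thiolase of the first step, fell by 0.64, but 52.3% of its exonic bases overlap genes on the opposite strand, SOD2 and TCP1 among them. The sources used here do not give the strand setting of the counting, so it is not known how reads in the shared bases entered its value. SOD2 itself rose (log2 change 0.75). ACAT2 was at 95.9 to 454 CPM in controls and 67.9 to 228 CPM in treated cultures. FDPS, farnesyl diphosphate synthase, was at 91.2, 86.7, 241 and 191.8 CPM in controls 1 to 4 and at 68.9, 61.0, 145.7 and 174.3 CPM in treated 1 to 4. It was lower in each pair, least so in replicate 4, and fell by 0.44 (edgeR adjusted p = 0.0409). PMVK, phosphomevalonate kinase, was at 23.9 to 44.4 CPM in controls and 22.8 to 26.8 CPM in treated cultures and did not pass (log2 change -0.38, edgeR adjusted p = 0.106).

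The 11 enzymes from squalene to cholesterol had a median log2 change of -0.47, and 7 of them fell. EBP, the sterol isomerase (chromosome X, 48521158 to 48528716), was at 71.7, 55.7, 108.9 and 94.1 CPM in controls 1 to 4 and at 38.2, 37.7, 66.4 and 74.8 CPM in treated 1 to 4. It was lower in each pair and differed less between the sets than most enzymes. EBP fell by 0.63 (SE 0.14, edgeR adjusted p = 0.00388).

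FDFT1, squalene synthase, was at 138.9, 113.3, 836 and 633 CPM in controls 1 to 4 and at 97.8, 105.0, 388 and 419 CPM in treated 1 to 4, and fell by 0.58 (SE 0.17, edgeR adjusted p = 0.0195). SQLE, squalene epoxidase, was at 55.5, 45.8, 233 and 220.1 CPM in controls 1 to 4 and at 43.4, 41.1, 134.4 and 152.8 CPM in treated 1 to 4, and fell by 0.46 (SE 0.15, edgeR adjusted p = 0.0338). In both genes the mean drop was larger in replicates 3 and 4, where the level in controls was higher. That difference between the sets was not significant (edgeR unadjusted p = 0.101 for FDFT1 and 0.158 for SQLE). MVK, MVD and EBP were also higher in controls 3 and 4, with a smaller fitted log2 drop there. That difference was not significant either (edgeR unadjusted p = 0.535 for MVK, 0.362 for MVD and 0.420 for EBP).

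LSS, which closes the sterol rings as lanosterol synthase, fell by 0.47 on the log2 scale, with 39.6, 43.2, 123.5 and 132.7 CPM in controls 1 to 4 and 27.1, 31.6, 84.7 and 103.4 CPM in treated 1 to 4. Of the enzymes that act on methyl groups of the rings, MSMO1, a methyl oxidase, fell by 0.55 and NSDHL, a decarboxylating dehydrogenase, by 0.52. MSMO1 was almost level in replicate 1 (41.2 CPM in control, 40.1 CPM in treated) and dropped most in replicate 3 (361 and 154.4 CPM). NSDHL was at 22.5 to 53.6 CPM in controls and 17.6 to 31.9 CPM in treated cultures and was lower in each pair. SC5D, which adds the double bond at the 5 position, fell by 0.54, from 80.5, 79.7, 262 and 225 CPM in controls 1 to 4 to 74.7, 46.1, 154.4 and 158.3 CPM in treated 1 to 4.

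The other 4 sterol enzymes did not pass. TM7SF2, a sterol reductase, had a log2 change of -0.46 (edgeR adjusted p = 0.0513) and HSD17B7, a ketosterol reductase, one of -0.40 (edgeR adjusted p = 0.0966). DHCR7, which reduces 7-dehydrocholesterol, was at 33.0, 68.3, 109.5 and 137.7 CPM in controls 1 to 4 and at 37.8, 33.0, 111.0 and 133.1 CPM in treated 1 to 4. Its level dropped clearly in replicate 2 and was nearly level or higher in the others, and the fitted change was -0.22 (edgeR adjusted p = 0.425). CYP51A1, lanosterol demethylase, had a log2 change of -0.01 (edgeR adjusted p = 0.985), but 83.2% of its exonic bases are shared with other annotated genes, 79.4% on its own strand. Its level of 10.5 ± 7.37 CPM in controls (SD, n = 4) is therefore uncertain.

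**Figure D2:**
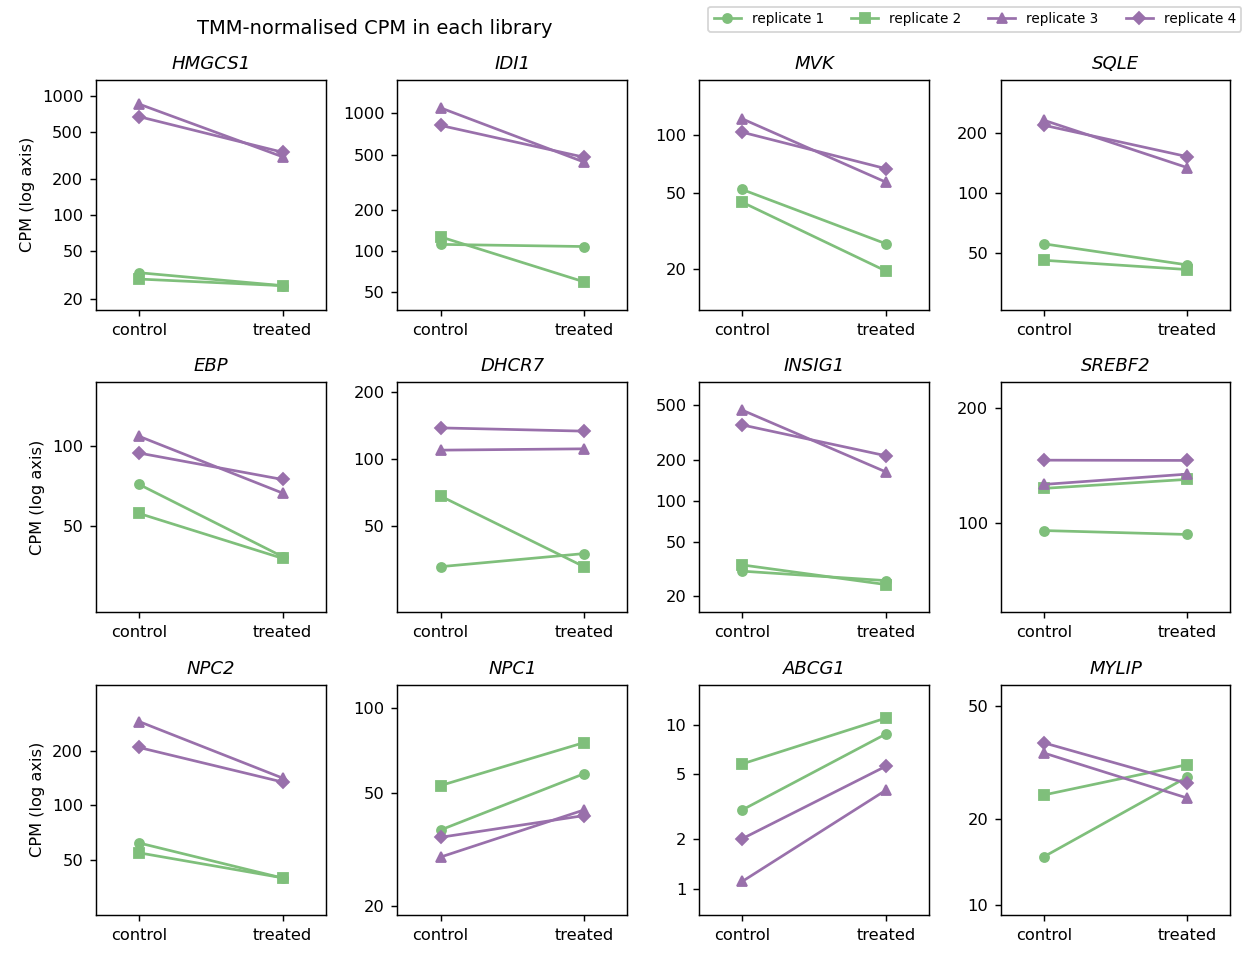
CPM on a log axis in each control and treated library of 12 genes, with lines joining libraries of the same replicate number (green for 1 and 2, purple for 3 and 4). HMGCS1, IDI1, SQLE and INSIG1 separate by set in the controls and are lower in the treated library of every pair. SREBF2 and DHCR7 show no common decline, and NPC1 and ABCG1 are higher in the treated library of every pair.

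Of the 5 regulators INSIG1 fell and the other 4 did not pass. INSIG1, which holds SCAP and SREBP in the endoplasmic reticulum and is itself an SREBP target (chromosome 7, 155297776 to 155310235), was at 30.5, 33.9, 460 and 358 CPM in controls 1 to 4 and at 26.02, 24.35, 162.5 and 213 CPM in treated 1 to 4. It fell by 0.75 (SE 0.17, edgeR adjusted p = 0.00482). INSIG2, its paralog, had a log2 change of -0.39 (SE 0.15, edgeR adjusted p = 0.0759), with changes of -0.04 and -0.12 in replicates 1 and 2 and of -0.84 and -0.55 in replicates 3 and 4. INSIG2 thus did not pass, and the difference between both paralogs was not tested.

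SREBF2 was at 95.8, 123.5, 126.5 and 146.4 CPM in controls 1 to 4 and at 93.5, 130.4, 134.6 and 146.2 CPM in treated 1 to 4. Values of the same number were nearly equal, and the fitted log2 change was 0.03 (SE 0.14, edgeR adjusted p = 0.908). SREBF1, whose products mainly drive fatty acid synthesis, had a log2 change of 0.11 (SE 0.14, edgeR adjusted p = 0.648), and SCAP one of 0.17 (SE 0.14, edgeR adjusted p = 0.476). These are mRNA levels, and the cleavage that activates SREBP proteins was not measured.

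Of the transport genes NPC2 fell, NPC1 rose and STARD4 did not pass. NPC2, the soluble lysosomal protein that hands cholesterol to NPC1 (chromosome 14, 74476192 to 74494177), was at 61.9, 54.5, 291 and 209 CPM in controls 1 to 4 and at 39.5, 39.6, 141.5 and 134.5 CPM in treated 1 to 4. It fell by 0.70 (SE 0.15, edgeR adjusted p = 0.00220). NPC1, the membrane protein that exports cholesterol from lysosomes (chromosome 18, 23506184 to 23586898), was at 37.1, 53.2, 29.8 and 34.9 CPM in controls 1 to 4 and at 58.6, 75.4, 43.7 and 41.7 CPM in treated 1 to 4. NPC1 rose by 0.49 (SE 0.14, edgeR adjusted p = 0.0157), with every treated culture above the control of its number. STARD4, a cytosolic sterol carrier, had a log2 change of -0.16 (edgeR adjusted p = 0.489).

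Of the LXR targets, ABCG1 rose and the others did not pass. ABCG1, an exporter of cholesterol to high-density lipoprotein (chromosome 21, 42199689 to 42297244), was at 3.03, 5.78, 1.11 and 2.02 CPM in controls 1 to 4 and at 8.80, 11.01, 3.99 and 5.59 CPM in treated 1 to 4. Each treated culture exceeded its control, while treated 3 and 4 did not exceed control 2. ABCG1 rose by 1.40 (SE 0.21, edgeR adjusted p = 0.000114), or 2.64-fold, from a low level of 2.98 ± 2.02 CPM to 7.35 ± 3.16 CPM (SD, n = 4).

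ABCA1, the other exporter, went from 5.44 ± 1.23 CPM to 6.85 ± 1.25 CPM (SD, n = 4). Its fitted log2 change of 0.33 did not pass (SE 0.20, edgeR adjusted p = 0.275). MYLIP was at 14.7, 24.3, 34.1 and 37.1 CPM in controls 1 to 4 and at 28.1, 31.1, 23.7 and 26.7 CPM in treated 1 to 4. Its changes were positive in replicates 1 and 2 (0.93 and 0.35) and negative in 3 and 4 (-0.53 and -0.47), and the fitted log2 change was 0.06 (edgeR adjusted p = 0.855). The difference between the sets had an unadjusted p of 0.00394 and did not pass over all genes tested (edgeR adjusted p = 0.363).

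Control cultures of replicates 3 and 4 held far more enzyme mRNA than those of replicates 1 and 2. Of the 29 genes, 19 had a mean CPM at least 2-fold higher in controls 3 and 4, against 10.1% of all genes tested. HMGCS1 was 24.7-fold, INSIG1 12.7-fold, IDI1 8.02-fold, MSMO1 7.89-fold and FDFT1 5.82-fold higher there. Outside the synthesis route, NPC2 was 4.30-fold and STARD4 2.41-fold higher. SREBF2 was 1.24-fold higher, while SCAP was at 0.675 and SREBF1 at 0.814 of its level in controls 1 and 2. ABCG1 had the opposite order, at 0.355 of that level, and was the 1 gene of the 29 at most 0.5-fold, against 13.4% of all genes tested. These sets were found from expression values, so no test of the difference in level between them is given. The set term and the tests of a difference in change rest on the same division.

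**Figure D3:**
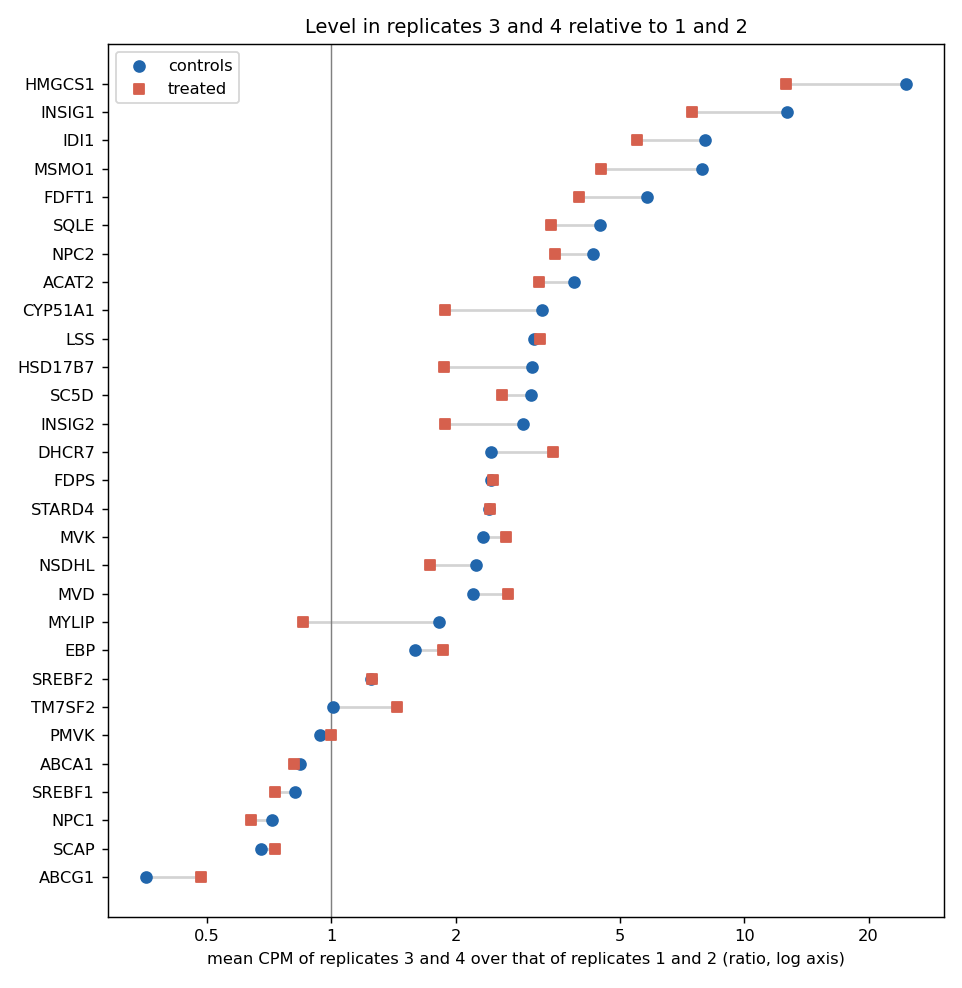
Ratio of mean CPM in replicates 3 and 4 to that in replicates 1 and 2 (log axis) for the 29 genes, in controls (blue circles) and treated cultures (red squares). HMGCS1 has the highest ratio in controls (24.7) and in treated cultures (12.6), and ABCG1 the lowest in both (0.355 and 0.484).

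After glucose oxidase the gap between the sets was smaller for the genes with the widest gap but did not close. In treated cultures 15 of the 29 genes were at least 2-fold higher in replicates 3 and 4, against 6.62% of all genes. HMGCS1 was 12.6-fold, INSIG1 7.46-fold and IDI1 5.50-fold higher. Treated 3 and 4 still had 10.4-fold the HMGCS1 and 3.87-fold the IDI1 of untreated cultures 1 and 2. Across the sets, 0 of the 29 genes had all treated below all control libraries, against 2.60% of all genes, and 0 had all above, against 2.42%.

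Within the sets the groups separated for 17 of the 29 genes. Both treated cultures were below both controls in each set for 15 of the 29 genes, which are the 15 that fell, against 9.70% of all genes. The opposite order in each set held for NPC1 and ABCG1, against 10.4% of all genes. Treated was below control in all 4 pairs for 16 genes, the 15 and INSIG2, against 17.1% of all genes, and above in all 4 for NPC1 and ABCG1, against 16.9%.

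For the enzymes, the median change within replicates 1 and 2 was -0.46, and within 3 and 4 it was -0.65. HMGCS1 had log2 changes of -0.27 and -1.24 in these sets, INSIG1 -0.35 and -1.12, MSMO1 -0.14 and -0.95, and HSD17B7 -0.03 and -0.74. For MVK (-1.05 and -0.87), EBP (-0.75 and -0.52) and LSS (-0.50 and -0.45) the changes of the sets were close. The test of the difference itself called 0 of the 29 genes, against 0.230% of all genes. Its smallest unadjusted p values among the 29 were those of MYLIP, HMGCS1 (0.00610) and MSMO1 (0.0129).

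With a term for the set in place of the replicate number, 10 of the 29 genes were lower and 1, ABCG1, was higher, against 3.07% and 3.72% of all genes. FDPS, FDFT1, SQLE, MSMO1, SC5D and NPC1 did not pass there (edgeR adjusted p from 0.0515 to 0.0717). DESeq2 with the block called the same 17 genes, 15 lower and 2 higher, against 9.13% and 8.53% of genes with an adjusted p. DESeq2 without the block called 0 of the 29, against 0.211% lower and 0.190% higher. In the authors' deposited table, where 0.109% of genes were lower and 0.0982% higher at an adjusted p below 0.05, the adjusted p of the 29 genes ran from 0.308 (ABCG1) to 0.990 (MYLIP).

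Without replicate 3 the block left 5 genes lower, MVK, IDI1, MVD, EBP and NPC2, and 1 higher, ABCG1. Scaling by total counts with the block left 9 lower and 2 higher, with a median of 0.10 for the log2 change over all genes tested. The fitted changes of all 13 enzymes that fell stayed negative under that scaling.

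Per gene length, the enzymes spanned a wide range of levels. By deposited FPKM in controls, IDI1 (124 ± 116), HMGCS1 (85.4 ± 93.0), FDFT1 (83.0 ± 70.9), MSMO1 (63.7 ± 58.7) and INSIG1 (60.8 ± 61.6; SD, n = 4) had the highest means, and their order lies within the spread over libraries. At the other end HSD17B7 was at 4.14 ± 2.51 and CYP51A1 at 2.94 ± 2.13, and the exporters ABCG1 (0.475 ± 0.311) and ABCA1 (0.471 ± 0.0971) were lowest. SREBF2 (16.1 ± 2.91) and SREBF1 (10.3 ± 1.26) lay between and varied little.

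**Figure D4:**
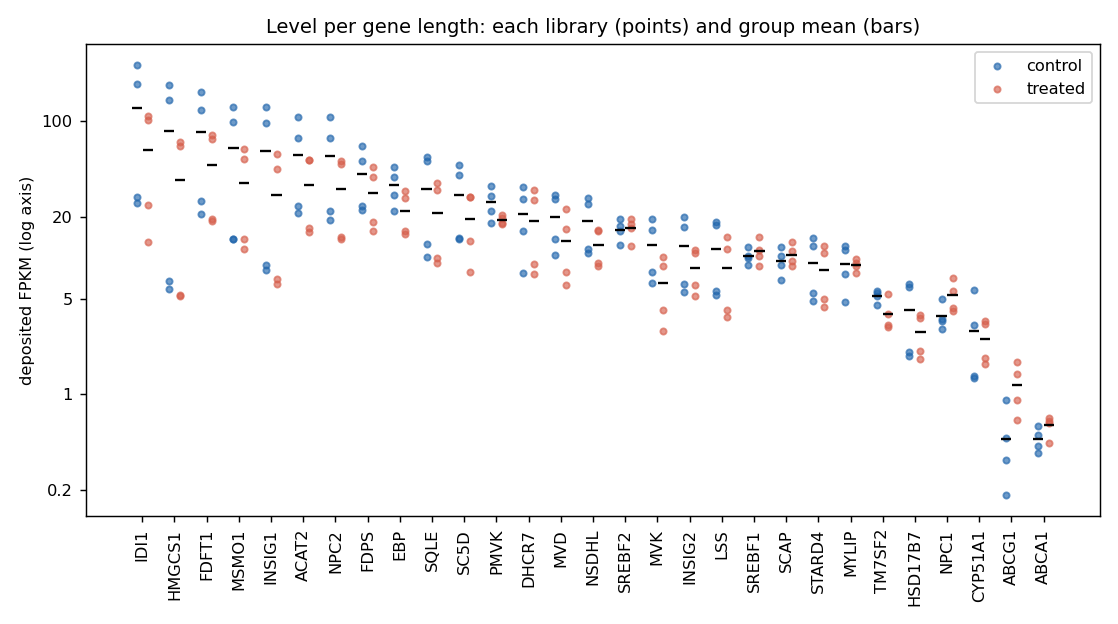
Deposited FPKM (log axis) of the 29 genes in 4 control (blue) and 4 treated (red) libraries, with the group mean as a black bar, ordered by the control mean. Libraries of the most abundant genes fall into a high and a low pair in each group, while SREBF1, SREBF2 and SCAP form a single narrow band.

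A CCAAT box was present in the promoter of all 12 genes that fell and had an entry: EBP, FDPS, HMGCS1, IDI1, INSIG1, LSS, MSMO1, MVD, MVK, NPC2, NSDHL and SC5D. Any of a gene's windows counts here, and HMGCS1, IDI1 and NPC2 each also have a window without a box. Of the other 13 genes with an entry 6 had one, the enzymes DHCR7, HSD17B7 and TM7SF2, and MYLIP, SREBF2 and STARD4. Over all matched enzymes, whether they fell or not, 13 of 15 had one. A link between the box and the fall was not tested. Among all tested genes matched to the table the share was 42.1%, and among those that fell 46.9% of 855. The sterol element core was found in 3 of the 12 and in 2 of the 13, against 8% of the matched tested genes. No entry was matched for ACAT2, FDFT1, SQLE and ABCG1.

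Genes around the pathway were followed in lists chosen by role, to be read against the 6.97% of all genes that fell and the 7.51% that rose. Of the 10 genes named as called in these lists, SRD5A3 and LRP8 also passed with the set term in place of the replicate number, and the other 8 did not. Without the block none of the 10 passed (edgeR adjusted p from 0.658 to 0.855). Of 5 other sterol synthesis genes ERG28, an endoplasmic reticulum scaffold of sterol enzymes, fell by 0.53 on the log2 scale (edgeR adjusted p = 0.0219). Of 16 genes of the isoprenoid branches 2 fell, SRD5A3, a polyprenol reductase of dolichol synthesis (-0.70, edgeR adjusted p = 0.00224), and COQ2, a transferase of ubiquinone synthesis (-0.50, edgeR adjusted p = 0.0197), and 0 rose. With the set term the edgeR adjusted p was 0.0526 for ERG28 and 0.0807 for COQ2. In replicates 1 and 2 and replicates 3 and 4 the log2 change was -0.29 and -0.77 for ERG28, -0.47 and -0.91 for SRD5A3 and -0.32 and -0.69 for COQ2.

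Of 12 genes of SREBP processing and sterol-regulated degradation 1 rose, SYVN1, a ubiquitin ligase of the endoplasmic reticulum (0.46, edgeR adjusted p = 0.0460), and 0 fell. The site proteases that cleave SREBP did not pass, with MBTPS1 at a log2 change of 0.18 and MBTPS2 at 0.25. Of 14 SREBP targets of fatty acid and lipid synthesis 1 fell, PCYT2, an enzyme of phosphatidylethanolamine synthesis (-0.51, edgeR adjusted p = 0.0212), and 0 rose. That list's median log2 change was 0.12, and FASN (0.27), ACACA (0.30) and SCD (-0.03) did not pass. Both counts, 1 of 12 and 1 of 14, are near the share over all genes, and both calls were lost with the set term (edgeR adjusted p = 0.27 for SYVN1 and 0.0601 for PCYT2). By set, the log2 change was 0.62 and 0.18 for SYVN1 and -0.77 and -0.24 for PCYT2.

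Of 9 LXR receptors, partners and targets 1 rose, TTC39B (0.47, edgeR adjusted p = 0.0262, and 0.0678 with the set term), with changes of 0.23 and 0.70 by set. The receptors NR1H2 (log2 change -0.05) and NR1H3 (-0.16) did not pass. Of 14 lipoprotein receptors and sterol transfer genes 3 rose, the lipoprotein receptors LRP8 (0.59, edgeR adjusted p = 0.00591), VLDLR (0.88, edgeR adjusted p = 0.0153) and LRP1 (0.57, edgeR adjusted p = 0.0182). In the same list LIMA1, an actin-binding protein linked to sterol uptake, fell by 0.43. With the set term the edgeR adjusted p was 0.0307 for LRP8, 0.0525 for VLDLR, 0.0957 for LRP1 and 0.067 for LIMA1. The log2 change of VLDLR was 0.28 and 1.94 in replicates 1 and 2 and replicates 3 and 4. VLDLR was at 10.9, 10.7, 1.11 and 0.817 CPM in controls 1 to 4. In treated 1 to 4 it was at 11.7, 14.6, 4.33 and 3.05 CPM. Its larger change in replicates 3 and 4 thus starts from a very low level. By set, the log2 change of LRP8 was 0.75 and 0.42, that of LRP1 0.75 and 0.35 and that of LIMA1 -0.44 and -0.42. Of 5 tested genes of cholesterol esters and oxysterols 0 passed, with CH25H at a log2 change of 0.91 (edgeR adjusted p = 0.110) from a mean of 1.48 CPM.

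**Figure D5:**
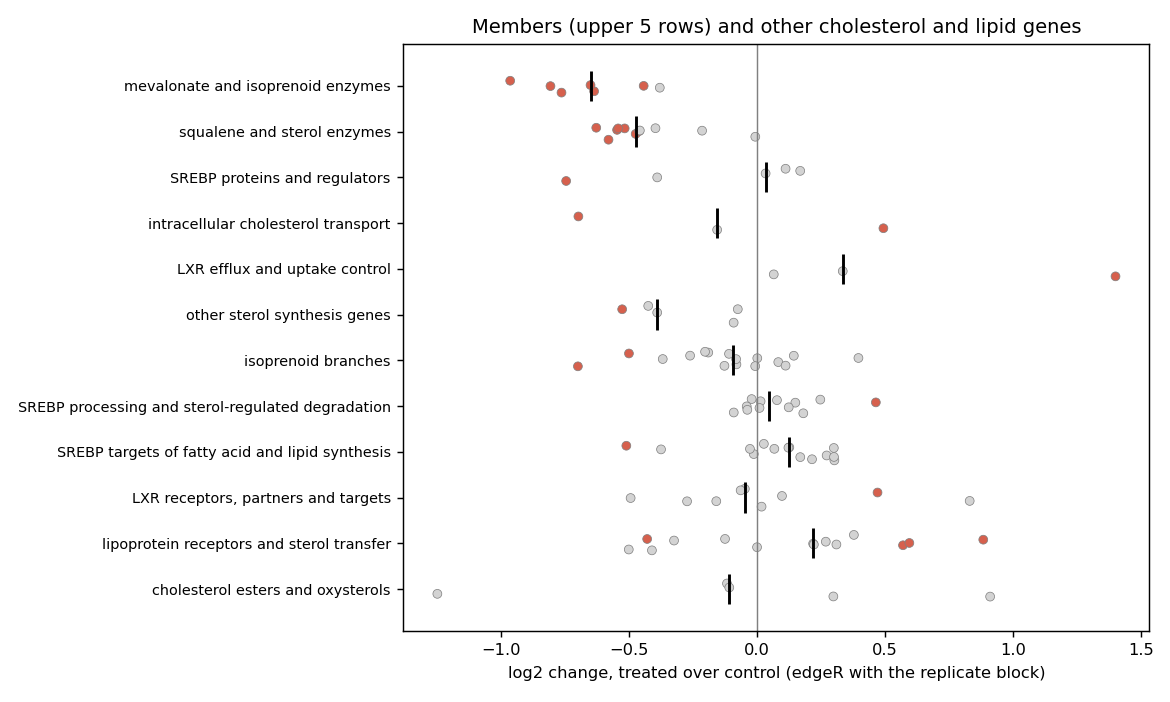
Log2 change of treated over control in the blocked edgeR fit for the 29 genes (upper 5 rows) and the other lists (lower 7 rows), with red points for an adjusted p below 0.05 and a black bar at each list's median. The medians of both enzyme rows (-0.65 and -0.47) lie left of 0, and that of the fatty acid row (0.12) lies right of it.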

How the data were processed

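RNA-seq of 8 SV-HUC1 libraries was used, 4 controls and 4 treated, grouped by the labels. Alignment, counting and testing used HISAT2 2.0.5, featureCounts 1.5.0-p3 and DESeq2 1.20.0 on GRCh38.p13, per the submitters' processing notes. The sources used here do not give the strand setting. The authors deposited whole, non-normalised counts per gene, FPKM values, size-factor-normalised signal, and a table with their log2 fold change and p-value per gene. From the counts, edgeR 4.0.16 under R 4.3.3 was fitted over all genes (TMM, filterByExpr, quasi-likelihood test, adjusted p below 0.05). The fit chosen as the main one has the group alone. Libraries of the same number deviated together from their group means (correlations of log2 CPM, prior count 2: 0.532, 0.678, 0.590 and 0.503, all over 0.1), so a fit that blocks on this number is given as well. That check does not separate pairing by number from the division into replicates 1 and 2 and replicates 3 and 4. Libraries within a group differed by more than sampling noise (chi-square over its degrees of freedom 9.98 to 227). The SE is the log2 change divided by the square root of the F statistic. Alternatives were DESeq2 1.42.0, other scalings, no filter, a gene length correction and leaving out libraries. The fits were tested on simulated data, and the outcome is not given here. In those data libraries of the same number shared their means by construction, so that test cannot judge the pairing by number. Exon overlaps came from GENCODE release 29. All members are named, and of other lists up to 3 called genes in each direction with the smallest adjusted p, with other genes named beside them after their values were seen. Members and lists were chosen with earlier results of these data known. Precision in CPM is limited by depth for genes of a few CPM. P-values of the blocked fit cover only the spread left between these libraries once differences between replicate numbers are taken out. For HMGCS1 the SE was 0.183 with the block and 1.157 without it.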

Additional observations from a re-analysis of the deposited data

How the results depend on the processing

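Without the replicate block 0 of the 29 genes were called lower or higher under TMM, RLE or total-count scaling, with no filter, in DESeq2, and without any 1 library. With the replicate block 15 were lower and 2 higher, 13 of the lower being enzymes, and with a term for the replicate set 10, 1 and 8. DESeq2 with the replicate block gave 15, 2 and 13, RLE with the replicate block 16, 2 and 14, total counts with it 9, 2 and 7, no filter with it 12, 2 and 10, and a gene length correction with it 12, 1 and 10. The blocked fit without 1 replicate gave 5 to 13 lower, 1 to 2 higher and 4 to 11 enzymes lower. The block thus changed these calls. The labels number both groups 1 to 4 but do not state that libraries of the same number were paired. Their correlation cannot settle this, as treated 4 correlated more with control 3 (0.652) than with control 4 (0.503). MVK, IDI1, MVD, EBP, NPC2 and ABCG1 passed in all 10 alternatives that carried the block or the set term, and the other 11 of the 17 genes failed in at least 1. Without 1 library and without the block, the median log2 change of the enzymes was -0.83 to -0.25 (-0.58 with all libraries). Among the 29 genes depth limits ABCG1 and ABCA1 most, at a few CPM.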
